A study of Mus musculus with 22 samples.

Results

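Foxp1, Foxp2 and Foxp4 are paralogous genes of the forkhead family of transcription factors, and their expression density was followed along the whole mouse brain with Transcriptome Tomography, in which a brain is sliced along 1 body axis and the RNA of each pooled slab, called a fraction, is measured on a microarray. The members were every probe that the scanner files assigned to these 3 genes through a table of RefSeq names, that is 3 probes for Foxp1, 2 for Foxp2 and 3 for Foxp4, or 8 of the 55600 probes analysed and 3 of the 20129 genes named. All 8 belonged to the 39621 probes that were well above background in at least 1 fraction of each series. The 22 fractions came from 3 male C57BL/6J mice, an inbred strain, with no treatment or transgene in the labels. A coronal series of 10 fractions was cut from mouse 1, a horizontal series of 6 from mouse 2 and a sagittal series of 6 from mouse 3. A single array was run per fraction. Most fractions were 1 slab, while coronal fraction 10 and sagittal fraction 1 pooled 2 slabs each and sagittal fraction 6 pooled 3. The age was 7 days by the titles of the samples and 3 days by the age field of the labels. No fraction or mouse had a replicate within a series, so the errors below come from how far single arrays lay from a smooth curve and hold no spread between animals.

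Forkhead proteins bind DNA through a winged-helix domain. The Foxp proteins carry in addition a zinc finger and a leucine zipper, through which they pair with themselves and with each other, and they act mostly as repressors. Foxp1 is known from projection neurons of the cortex and striatum. Foxp2, the paralogue linked to speech and language in humans, is known from deep cortical layers, the striatum, the thalamus and Purkinje cells. Foxp4 is known from many regions of the developing brain.

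The proximal promoters are shown because Foxp proteins themselves bind the forkhead core TGTTTA. RefSeq windows of 300 bases on the GRCm38.p6 build, from 250 bases before to 50 after a transcription start, were matched for Foxp1 (3 starts) and Foxp4 (1 start). All lie on the minus strand and are read 5′ to 3′ here, with the core or its reverse complement TAAACA in capitals and no base printed beyond the start. The core was searched on both strands. Its spellings can share the bases TA where one follows the other, but no match in these windows overlapped another.
Foxp1, chr6:99521054-99521109: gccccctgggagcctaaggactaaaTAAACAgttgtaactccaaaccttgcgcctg
Foxp1, chr6:99266562-99266617: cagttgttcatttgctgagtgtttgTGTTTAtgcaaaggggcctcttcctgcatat
Foxp1, chr6:99266516-99266556: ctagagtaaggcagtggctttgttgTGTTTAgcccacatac
Foxp1, chr6:99028323-99028378: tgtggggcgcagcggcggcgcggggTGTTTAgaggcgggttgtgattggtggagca
Foxp4, chr17:47924633-47924682: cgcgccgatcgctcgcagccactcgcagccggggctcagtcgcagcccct
Each of the 3 Foxp1 windows held the core, 91, 77 and 55 bases before the start for the first core of each, and the middle window held another copy 16 bases before it. The Foxp4 window held none, and its last 50 bases before the start are shown. Of all 32851 windows of the same table, 4416 held the core on either strand, or 13.4%. A match of 6 letters is a description of the sequence and not a binding site. The arrays do not separate transcripts by their start.

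Levels are log2 processed intensities relative to the array's own 75th percentile, so 0 is the level of the 75th percentile of that array, and a difference of 1 is a doubling. A brighter probe is not a more abundant transcript, because probes differ in how well they bind, so only the profiles along a series were set against each other. Each Foxp probe was spotted once on an array. Probes spotted repeatedly had a median SD between spots of 0.0646 at levels above 0, 0.103 at levels from -3 to 0 and 0.331 under -3, and this is the precision of 1 spot. Of the 22 arrays, 7 had a spike-in slope that the extraction software marked as out of range, namely coronal fractions 1 and 2, horizontal fractions 1 to 3 and sagittal fractions 1 and 3. The median level of the 39621 probes lay between -1.81 and -1.21 on single arrays. In RNA of a whole slab, fewer cells of a type and less RNA per cell cannot be told apart. The labels do not orient the series. Among the region marker lists, the hindbrain list peaked in coronal fraction 1 (5.88, as the median log2 level of its 7 genes after centring each on its mean), the granule cell list of the cerebellum in fraction 2 (2.22) and the olfactory bulb list in fraction 10 (4.17). The hypothalamus list peaked in horizontal fraction 6 (4.33).

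Foxp1 was low in the first coronal fractions and high in the middle and later ones. Its reference probe (A_55_P2088825, the brightest of the gene) stood at 2.32, 2.21 and 2.56 in coronal fractions 1 to 3, at 3.54 in fraction 4, between 4.25 and 4.73 in fractions 5 to 8, and at 4.22 and 3.02 in fractions 9 and 10. The highest fraction was 8 and the lowest 2, a range of 2.52, or 5.73-fold. All of fractions 4 to 9 were above all of fractions 1 to 3 and 10, a split drawn after the values were seen. The fitted curve spanned 2.76 against a median of 0.99 over all 39621 probes, and position along the coronal series was past the threshold (adjusted p 0.00123 in limma). The second probe of the same transcript, A_52_P276792, ran from 0.40 in fraction 2 to 2.94 in fraction 8, with the same order of its highest and lowest fractions, and was also past the threshold (adjusted p 0.0015). The 2 calls were lost among the alternatives only when a straight line replaced the curve (adjusted p 0.0727 and 0.138, over ranges of 4.25e-04 to 0.0727 and 5.17e-04 to 0.138), and held without any 1 array.

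Along the other axes the bright Foxp1 probes had smaller ranges, a difference between axes that was not tested. In the horizontal series the reference probe lay between 3.47 (fraction 6) and 4.02 (fraction 4), with a median of 3.70, and in the sagittal series between 3.14 (fraction 4) and 4.30 (fraction 1), with a median of 3.75. The sagittal values were highest in fractions 1 and 2, at 4.30 and 4.17. The sagittal linear term, the end-to-end change, was -0.80 ± 0.46 (SE) for the reference probe and -1.22 ± 0.49 for A_52_P276792 (adjusted p 0.313 and 0.141). Neither was past the threshold as analysed.

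The remaining Foxp1 probe, A_55_P2105452, was designed on another RefSeq transcript of the gene and was dim, with a median of -2.82, although well above background on all 22 arrays. In the coronal series it ran from -3.38 (fraction 3) to -1.93 (fraction 8), with a median of -3.004. Its horizontal values lay between -2.77 and -1.96 except in fraction 3, where it reached -0.12, and its sagittal values between -3.69 and -2.81 except in fraction 6, at -1.35. It was past the threshold in no term (adjusted p 0.302 for coronal position and 0.0876 for position in any series).

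**Figure D1:**
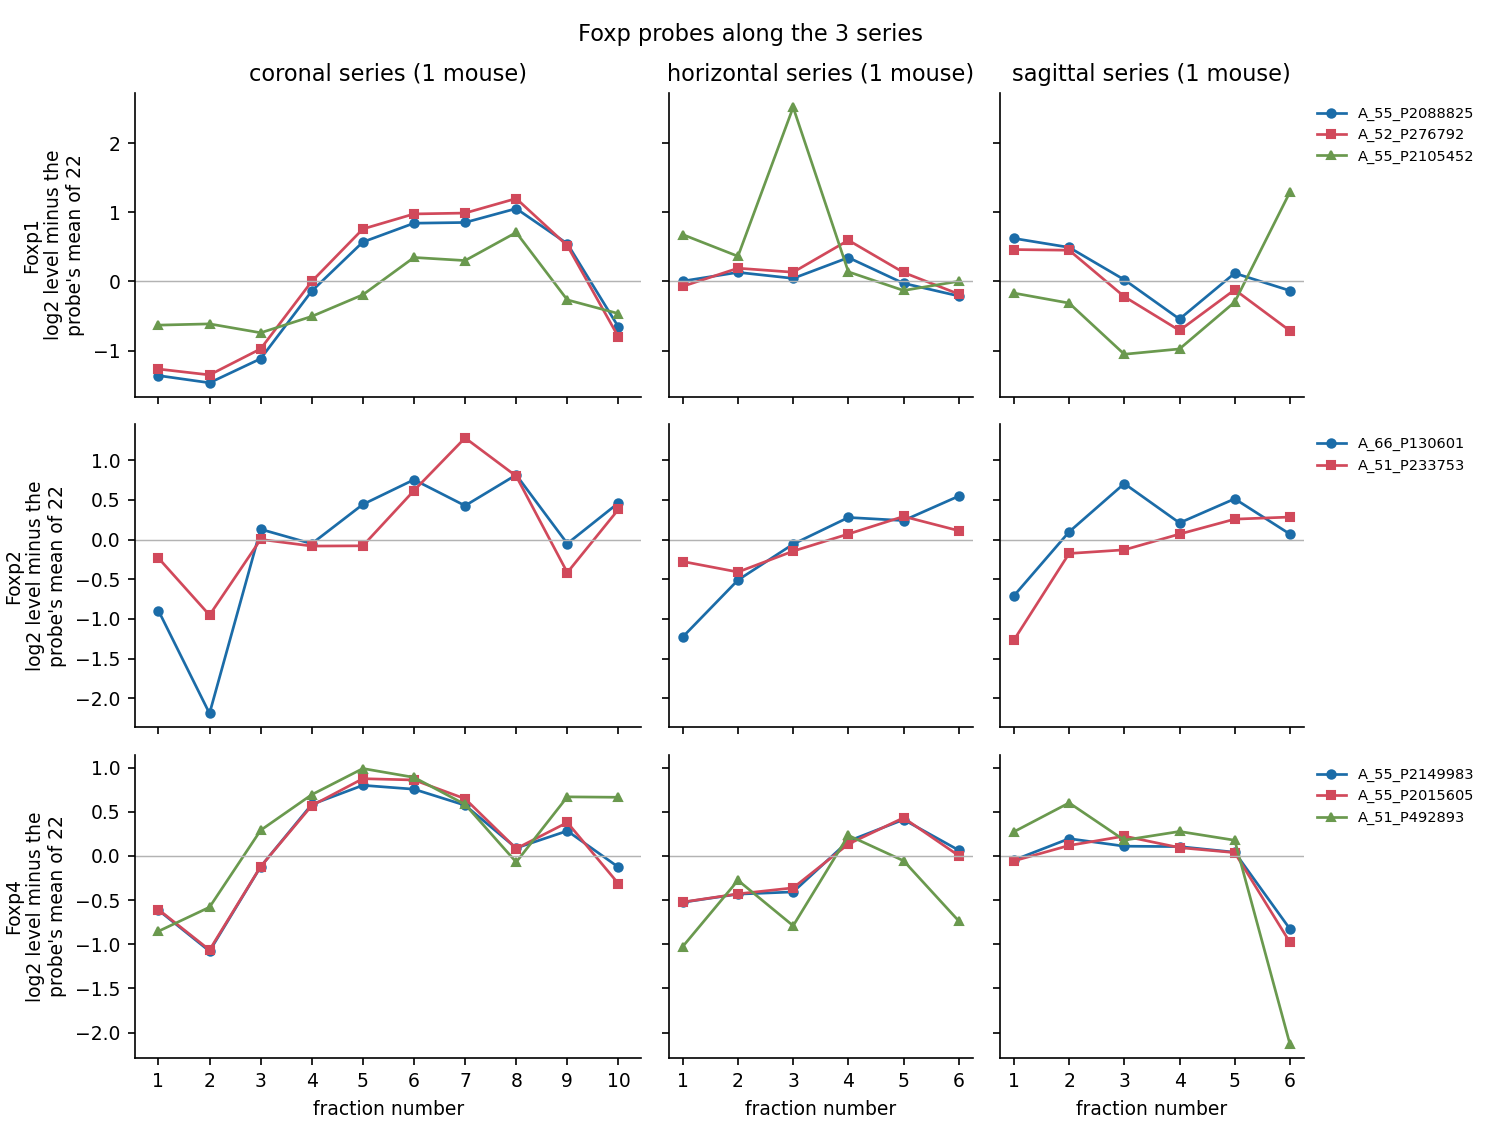
Log2 level of each Foxp probe minus its own mean over the 22 fractions (y axis), by fraction number (x axis), for the coronal, horizontal and sagittal series of 1 mouse each; a point is 1 array and carries no error bar because no fraction was repeated. The brighter probes of Foxp1 (A_55_P2088825, A_52_P276792) and of Foxp4 (A_55_P2149983, A_55_P2015605) run together, lowest in coronal fraction 2, while the dim probes A_55_P2105452 and A_51_P492893 depart in horizontal fraction 3 or sagittal fraction 6.

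By its reference probe, Foxp2 was lowest in coronal fraction 2 and stood higher from fraction 3 onwards. Its reference probe, A_66_P130601, was at -2.64 and -3.93 in coronal fractions 1 and 2, and between -1.79 and -0.93 in fractions 3 to 10. This split was drawn after the values were seen. The highest fraction was 8 and the range 3.01, or 8.04-fold. Coronal position was past the threshold (adjusted p 0.0178 in limma, fitted range 2.10). The low values lay on the 2 coronal arrays whose spike-in slope was out of range. Without the 7 such arrays the adjusted p was 0.503, and it was 0.0805 with the signal of a dim spike-in probe (a107) as a covariate, over a range of 0.00845 to 0.503 across the alternatives. Over the 22 arrays the level had r of -0.63 with a107 and of -0.71 with the array median, and their part in the result was not tested beyond these values.

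In the horizontal series Foxp2 was at -2.97 in fraction 1, -2.25 in fraction 2 and -1.19 in fraction 6, its highest value, with a median of -1.65. The linear term was 1.64 ± 0.57 (SE), and horizontal position was not past the threshold (adjusted p 0.104 in limma). It was past it with the slide as a block (0.0144), a fit in which coronal fraction 2, the only array on its slide, adds nothing, and without that fraction (0.0169). In these fits 5365 and 6522 of all probes were past it, against 2609. The 3 lowest values were those of fractions 1 to 3, the horizontal arrays with a slope out of range. In the sagittal series it ran from -2.45 in fraction 1 to -1.04 in fraction 3, with a median of -1.59. The other Foxp2 probe, A_51_P233753, designed on the same transcript, was dimmer, with a median of -2.99. It was lowest in coronal fraction 2 (-3.91) and highest in fraction 7 (-1.67), with fraction 9 (-3.37) below fraction 1 (-3.19). In the sagittal series it was lowest in fraction 1 (-4.22) and highest in fraction 6 (-2.67). It was past the threshold in no term as analysed (adjusted p 0.107 for coronal position).

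Foxp4 was highest in coronal fraction 5 and, like Foxp1, lowest in fraction 2. Its reference probe, A_55_P2149983, was at 2.37 and 1.91 in coronal fractions 1 and 2, at 2.86 in fraction 3, between 3.56 and 3.78 in fractions 4 to 7, at 3.07 and 3.27 in fractions 8 and 9, and at 2.86 in fraction 10. The range was 1.88, or 3.67-fold. Fractions 4 to 7 were above all others, a split drawn after the values were seen. A_55_P2015605, designed on the same transcript, peaked in the same fraction at 3.75 and was lowest in fraction 2 at 1.81. Both were past the threshold for coronal position (adjusted p 0.00826 and 0.00631 in limma, fitted ranges 1.58 and 1.69). Without the 7 arrays with a slope out of range the adjusted p were 0.121 and 0.0741 and the coronal linear terms, 0.80 and 0.74 on all arrays, were -0.45 and -0.58, with a107 as a covariate 0.0726 and 0.055, and on the coronal arrays alone 0.0891 and 0.0811. Over all alternatives they ranged from 0.00365 to 0.312 and from 0.00269 to 0.39. The level of A_55_P2149983 had r of -0.66 with a107 and of -0.81 with the array median over the 22 arrays.

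The horizontal values of A_55_P2149983 lay between 2.46 (fraction 1) and 3.40 (fraction 5), with a median of 2.81, and fractions 4 to 6 were above fractions 1 to 3, which are the horizontal arrays with a slope out of range. The part of these arrays in that split was not tested. In the sagittal series it lay between 2.94 and 3.18 in fractions 1 to 5 and at 2.16 in fraction 6. A_55_P2015605 showed the same drop, from between 2.81 and 3.10 to 1.89. The dim Foxp4 probe, A_51_P492893, designed on another transcript, was well above background on 18 of the 22 arrays, not in coronal fraction 1, horizontal fractions 1 and 6 or sagittal fraction 6. In the sagittal series it lay between -3.77 and -3.34 in fractions 1 to 5 and at -6.07 in fraction 6, a value that is only a bound. Its sagittal linear term was -2.18 ± 0.51 (SE, adjusted p 0.0131 in limma). The adjusted p was 0.885 without sagittal fraction 6, over a range of 0.00626 to 0.885 without 1 array at a time. It was 0.103 with values below background raised to the lowest level detected on the array. With normexp the sagittal linear term of this probe had the other sign, at 0.11 (adjusted p 0.701 in limma). In coronal position it was just past the threshold (adjusted p 0.0383 in limma), as in 14 of the 22 fits that left out 1 array but in only 3 of the 14 other alternatives, over which the adjusted p ranged from 0.031 to 0.955. Sagittal fraction 6 was also where the blood marker list (5 of 5 genes measured) reached 1.54, its joint highest value with horizontal fraction 1, over a range of -1.48 to 1.54, and where the list for meninges and choroid plexus stood at 1.39. The part of these lists in the low Foxp4 values was not tested.

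Counted together, 6 of the 8 Foxp probes were past the threshold for coronal position, against 19.8% of all probes tested. The 6 were the reference and second probe of Foxp1, the reference probe of Foxp2 and all 3 probes of Foxp4. In the horizontal series 0 of 8 were past it in limma, against 6.58% of all probes, with 1 at an unadjusted p under 0.05. The 2609 probes behind that share were 9 without horizontal fraction 1 and 6522 without coronal fraction 2, the lowest and highest numbers without 1 array, 38 with a107 as a covariate, 13 without the arrays with a slope out of range and 5365 with the slide as a block. The sagittal linear term was past it for 1 of 8 (A_51_P492893), against 10.2%, and the sagittal quadratic term, the middle of the series against its sides, for 0 of 8 in limma, against 0.0303%, with 3 at an unadjusted p under 0.05. Position in any series was past it for the same 6 probes, against 33.4%. The probes of 1 gene share a target and are not independent of each other. The coronal number was 2, the bright probes of Foxp1, without the 7 arrays with a slope out of range and with a107 as a covariate. With a straight line in place of the curve it was 0. The number for any series was 0 with a straight line and 0 without the 7 arrays, where 93 of all probes were called in place of 13218. Without sagittal fraction 6 the number for any series was 3 and that for the sagittal linear term 0, when 3279 and 0 of all probes were called.

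The size of the coronal ranges moved with the scaling of the arrays. With the array median in place of the 75th percentile, the reference probes of Foxp1, Foxp2 and Foxp4 ranged over 3.62, 4.26 and 3.22, against 2.52, 3.01 and 1.88. With normexp the ranges were 2.34, 1.40 and 2.01, and with quantile normalization 2.30, 4.26 and 1.58. Fraction 2 stayed the lowest for all 3 with the array median, no scaling, normexp and the authors' table, and with quantile normalization for Foxp2 and Foxp4, where Foxp1 was lowest in fraction 1. The highest fraction of Foxp4 was 5 in each of these. That of Foxp1 was 8, 6 or 5 and that of Foxp2 8, 6 or 5, depending on the scaling.

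The paralogues were compared through the difference of their reference probes, fitted as a row of its own. Relative to its mean over the 22 fractions, the difference of Foxp1 minus Foxp4 was lowest in coronal fraction 3 (-0.99) and highest in fraction 8 (0.96). It stood at -0.75 and -0.53 in the end fractions 1 and 10. Its linear term was 1.05 ± 0.40 (SE). Coronal position, the linear and quadratic terms together, did not pass the threshold (adjusted p 0.0875 in limma). Along the horizontal series the difference of Foxp1 minus Foxp2 went from 1.23 in fraction 1 to -0.76 in fraction 6, and in the sagittal series from 1.33 in fraction 1 to -0.75 in fraction 4. Its horizontal linear term was -1.82 ± 0.62 (SE). Horizontal position, both terms together, was not past the threshold (adjusted p 0.112 in limma). The sagittal linear term of Foxp2 minus Foxp4 was 1.39 ± 0.54 (adjusted p 0.122). None of the 3 paralogue differences was past the threshold in any term as analysed, the nearest being Foxp1 minus Foxp2 and Foxp1 minus Foxp4 over all series (adjusted p 0.0577 and 0.0622), with 1 at an unadjusted p under 0.05 for coronal position, 1 for horizontal position, 2 for each sagittal term and 2 over all series. Alternatives fell on either side. With normexp background correction, all 3 were past the threshold over all series and Foxp1 minus Foxp2 was past it in the coronal series. On the 15 arrays with a slope in range, Foxp1 minus Foxp2 was past it in the coronal series as well (adjusted p 0.045, over a range of 0.0174 to 0.958). Without coronal fraction 10, Foxp1 minus Foxp4 was past it there (adjusted p 0.0217, over a range of 0.0217 to 0.153 without 1 array at a time). A difference that misses the threshold does not show that the paralogues ran alike.

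**Figure D2:**
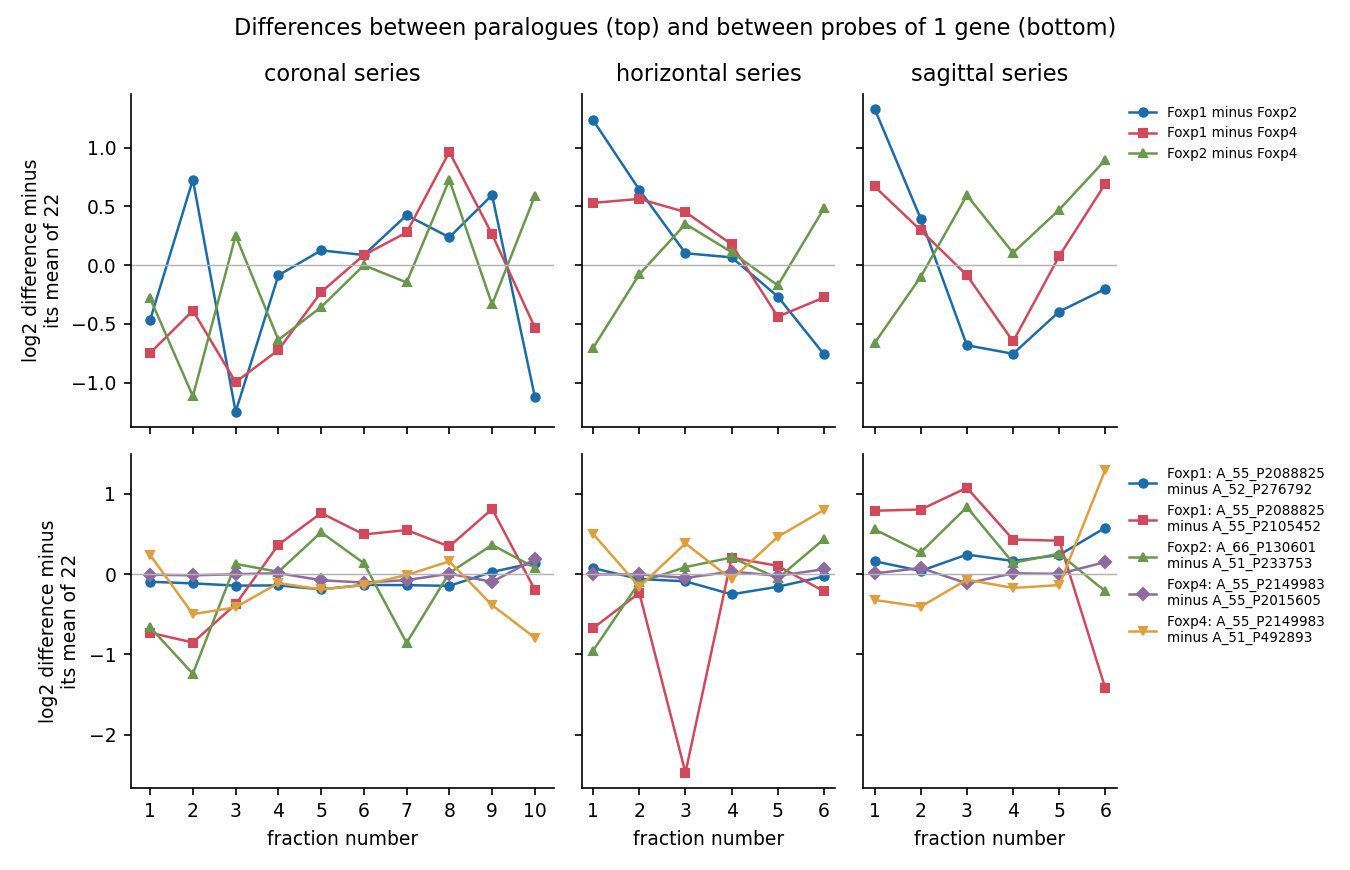
Differences of log2 levels between the reference probes of the paralogues (top) and between the reference probe and each other probe of the same gene (bottom), each minus its mean over the 22 fractions (y axis), by fraction number (x axis); points are single arrays without error bars. The difference of the Foxp4 probes A_55_P2149983 and A_55_P2015605 stays between -0.11 and 0.19, while the paralogue differences span from -1.25 to 1.33.

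As a description over the 22 fractions, which share a mouse within a series, the reference probes had r of 0.53 (Foxp1 and Foxp2), 0.62 (Foxp1 and Foxp4) and 0.70 (Foxp2 and Foxp4). Within the 10 coronal fractions r was 0.75, 0.82 and 0.80. In the 6 horizontal fractions it was -0.11, -0.03 and 0.78, and in the 6 sagittal fractions -0.51, 0.21 and 0.19. In the sagittal fractions Foxp1 was highest and Foxp2 lowest in fraction 1. On the 15 arrays with a slope in range the values were 0.41, 0.50 and 0.22, and with the array median as the scaling 0.78, 0.82 and 0.88. Without coronal fraction 2 alone they were 0.32, 0.51 and 0.57. Across other genes, the r of the reference probe with all other 39620 probes had a median of -0.11 for Foxp1, -0.08 for Foxp2 and -0.23 for Foxp4, and 5% of these probes exceeded 0.65, 0.62 and 0.78. Of the paralogue values, the r of 0.70 was above that level for Foxp2 and below it for Foxp4, and the other r were below it for both genes of their pair.

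Probes of the same transcript ran together where they were bright. A_55_P2088825 and A_52_P276792 of Foxp1 had r of 0.96 over the 22 fractions, and A_55_P2149983 and A_55_P2015605 of Foxp4 r of 0.99. The residual SD of these differences around their curves was 0.055 and 0.0645, against 0.37 and 0.296 for the reference probes themselves. The probes of such a pair departed from their curves together on the same arrays. The 2 dim probes of Foxp2 had r of 0.71, and the residual SD of their difference was 0.446. Of the dim probes designed on other transcripts, A_55_P2105452 had r of 0.37 with the Foxp1 reference probe (0.87 in the coronal, 0.05 in the horizontal and 0.10 in the sagittal fractions), and A_51_P492893 r of 0.80 with that of Foxp4 (0.87, 0.67 and 0.99, the last including the bound in sagittal fraction 6). With normexp background correction in place of the processed signal these r were 0.15 and 0.33, and that of the Foxp2 probes 0.48.

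Of the 5 differences between probes of 1 gene, 1 was past the threshold. The difference of A_55_P2149983 minus A_51_P492893 of Foxp4 rose along the sagittal series by 1.45 ± 0.38 (SE, adjusted p 0.0236 in limma, against 10.2% of all probes) and was past the threshold over all series (adjusted p 0.0324). The level of A_51_P492893 in sagittal fraction 6 is the bound given above. The adjusted p for the sagittal term was 0.793 without that fraction and 0.359 with values below background raised to the detection level, and with normexp the term had the other sign (-0.91, adjusted p 0.108), over a range of 0.0144 to 0.589 for the alternatives. In the coronal and horizontal series and in the sagittal quadratic term 0 of 5 were past the threshold in limma, with 1, 0 and 1 at an unadjusted p under 0.05. For the Foxp1 probe A_55_P2105452, whose difference from the reference probe was at -2.47 in horizontal fraction 3, leaving out that fraction took the adjusted p over all series from 0.0598 to 0.00263 (over a range of 0.00263 to 0.286 without 1 array at a time), and 2 of the 5 differences were then past it.

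**Figure D3:**
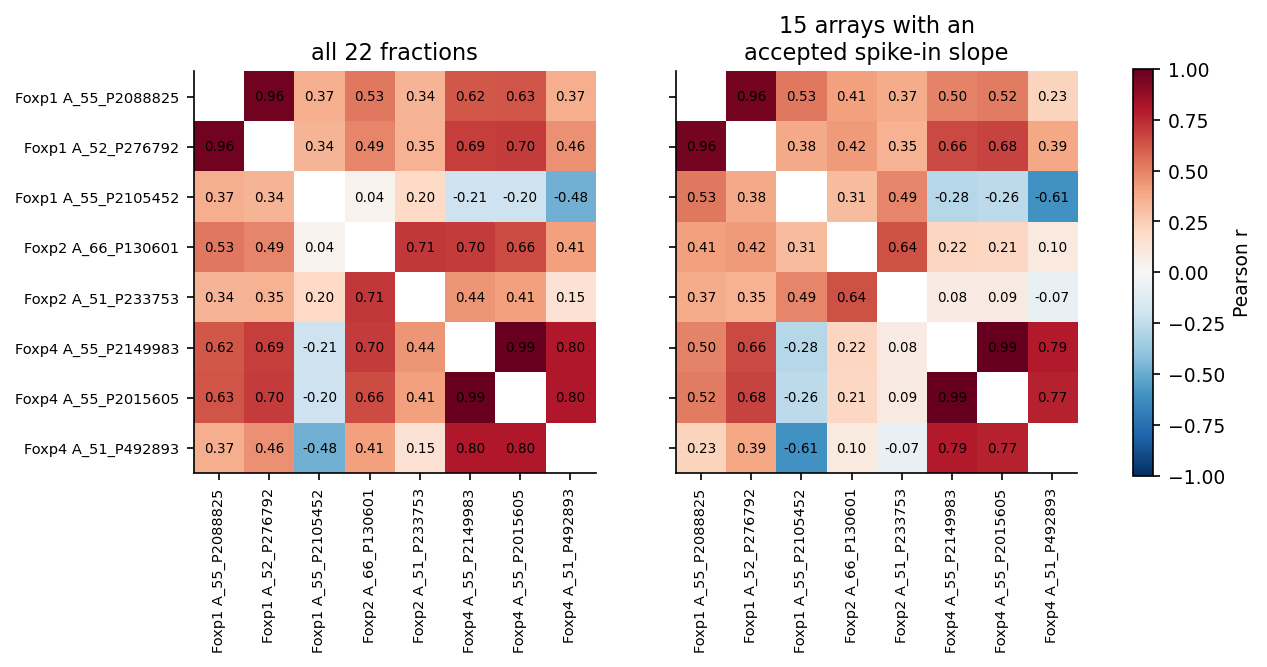
Pearson r between the profiles of the 8 Foxp probes over all 22 fractions (left) and over the 15 arrays whose spike-in slope was accepted (right), colour from -1 to 1. The pairs of bright probes of Foxp1 (0.96) and of Foxp4 (0.99) keep their values on the 15 arrays, while the r of the reference probes of Foxp2 and Foxp4 goes from 0.70 to 0.22.

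The region lists give the anatomy in which these profiles lay, as medians of centred levels that were described and not tested. The list for cortical projection neurons (8 genes, Emx1, Neurod6 and Tbr1 among them) was at -2.60, -1.66 and -2.68 in coronal fractions 1 to 3 and between 0.83 and 1.37 in fractions 5 to 9. Neurod2 of this list was highest in coronal fraction 2 and had r of 0.10 with Foxp1. Foxp1 had r of 0.88 with the cortical projection list over the 22 fractions, and of 0.91, 0.55 and 0.84 within the coronal, horizontal and sagittal series. The list for striatal projection neurons (8 genes, the dopamine receptors Drd1 and Drd2 among them) peaked in coronal fraction 8, at 2.08. The reference probes of Foxp1 and Foxp2 were highest there too, but in fraction 8, 6 or 5 depending on the scaling. That of Foxp2 was at -0.93 in fraction 8 and -0.99 in fraction 6, and the other Foxp2 probe was highest in fraction 7. The striatal list had r of 0.75 with Foxp1, 0.60 with Foxp2 and 0.44 with Foxp4. Within the coronal, horizontal and sagittal series it was 0.86, -0.07 and 0.74 for Foxp1, 0.64, 0.89 and -0.13 for Foxp2, and 0.52, 0.88 and -0.17 for Foxp4. Of its genes 7 peaked in coronal fraction 8 and Tac1 in fraction 1, and their r with Foxp1 ran from 0.10 (Penk) to 0.89 (Drd1), with Drd2 at 0.32. For Foxp2 the highest r was with the list for cortical layer 6 (0.77, from 5 genes, without Foxp2), at 0.84 in the coronal, 0.80 in the horizontal and 0.19 in the sagittal series. Its single genes had r with Foxp2 of 0.61 (Tle4), 0.54 (Tbr1), 0.46 (Ccn2), 0.70 (Syt6) and -0.12 (Nxph4). The layer 6 list was highest in coronal fraction 10 (0.67), as the olfactory bulb list was. It was lowest in coronal fraction 2 (-1.45), an array with a slope out of range, as Foxp2 was. In the horizontal series it was lowest in fraction 1 (-0.54), where the cortical projection list was highest (0.76). Foxp2 had r of 0.31 with the cortical projection list, at 0.61 in the coronal, -0.82 in the horizontal and -0.85 in the sagittal series. Foxp4 had its highest r with the hippocampus list (0.70) and the thalamus list (0.66, Tcf7l2 and Gbx2 among its 7 genes), whose coronal peaks lay in fraction 6. The thalamus genes differed among themselves, with Gbx2 and Prkcd highest in coronal fraction 7, Calb2 in 10 and Rora in 1, and their r with Foxp4 ran from 0.16 (Rora) to 0.76 (Prkcd). All 3 genes had negative r with the blood list (-0.57, -0.44 and -0.71). In the coronal series these r were -0.90, -0.69 and -0.77, in the horizontal series -0.32, -0.45 and -0.58, and in the sagittal series -0.41, 0.11 and -0.78. The Purkinje list, the cells of the cerebellum in which Foxp2 is known, was highest in coronal fraction 3 (0.92) and had r of -0.13 with Foxp2 over all fractions, and of -0.68 within the coronal, 0.82 within the horizontal and 0.90 within the sagittal series.

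**Figure D4:**
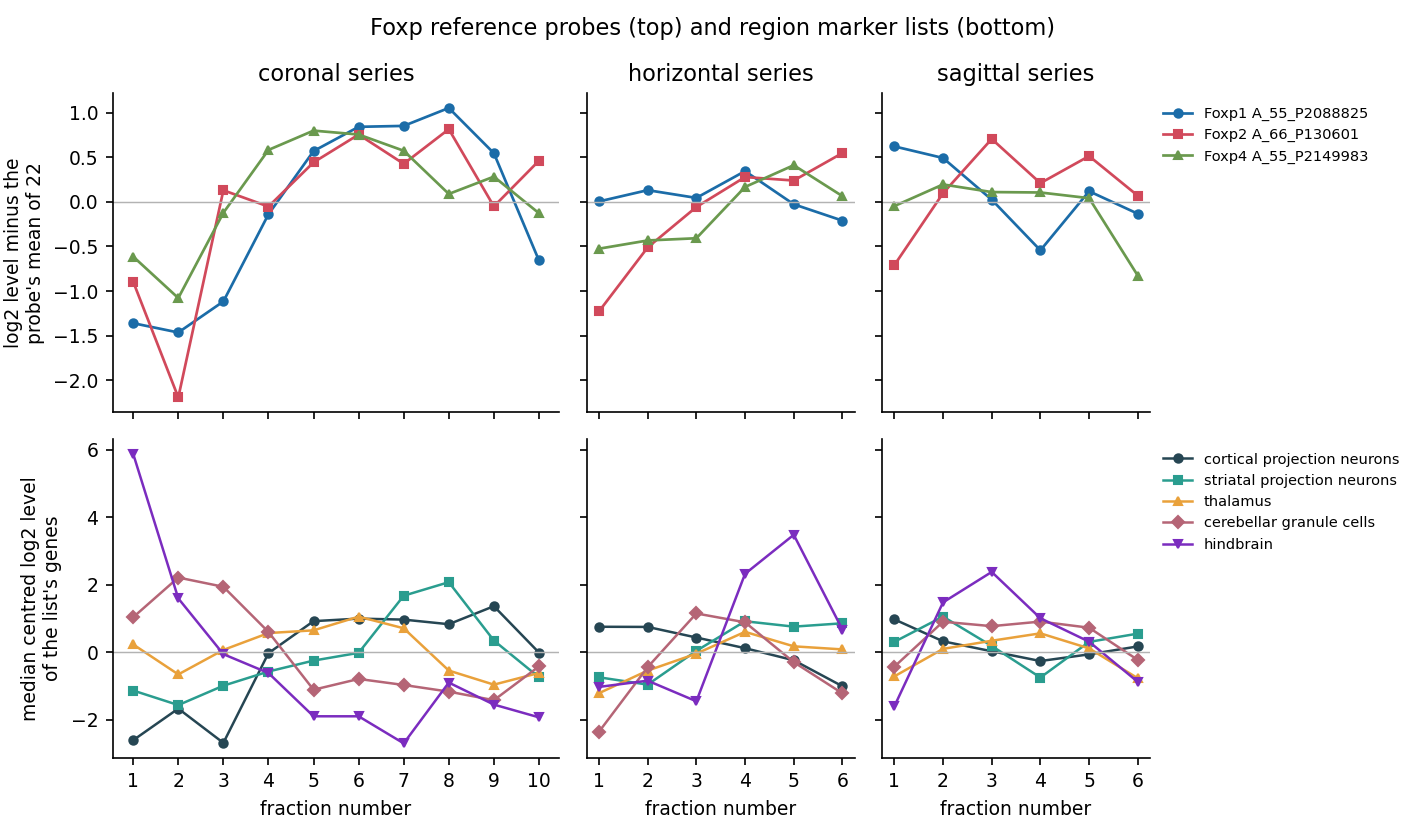
Top: log2 level of the Foxp reference probes minus their mean over the 22 fractions; bottom: median centred log2 level of the genes in 5 region marker lists; x axis: fraction number in each series, 1 array per point and no error bars. In the coronal series the hindbrain list peaks in fraction 1 at 5.88 and the granule cell list in fraction 2 at 2.22, the fractions in which the Foxp probes are lowest. The striatal list peaks with Foxp1 in fraction 8, a peak of Foxp1 that moved with the scaling.

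The genes with the profile most like each paralogue, by Pearson r over the 22 fractions and the probe of highest r of each gene, differed between the 3. For Foxp1 they were Rap2b (0.96), a small GTPase, Enc1 (0.95), an actin-binding protein of the nervous system, Cplx2 (0.94), a complexin of the synaptic release machinery, Gas7 (0.93), a growth-arrest gene, and Vegfd (0.93), a growth factor of lymphatic vessels. For Foxp2 they were Mc3r (0.86), a melanocortin receptor, Sesn3 (0.86), a sestrin, Xrra1 (0.85), Scyl3 (0.85) and Pdp1 (0.84), a phosphatase of pyruvate dehydrogenase. On the 15 arrays with a slope in range these 5 had r between 0.40 and 0.65, against 0.90 to 0.93 for the 5 of Foxp1. For Foxp4 they were Rara, a retinoic acid receptor, Rubcn, Klhdc10 and Cdc42ep4, with r between 0.963 and 0.965, and Drosha, the nuclease of microRNA processing (0.956). These 5 had r between 0.93 and 0.99 on the 15 arrays. The likeness differed between the series. For the 5 genes of Foxp1, r lay between 0.96 and 0.98 in the coronal fractions. It lay between 0.009 (Cplx2) and 0.41 (Vegfd) in the horizontal fractions. For the 5 of Foxp2, sagittal r ran from -0.10 (Xrra1) to 0.87 (Pdp1). For the 5 of Foxp4, r within a series lay between 0.88 and 0.99. With the limit of r above 0.85 that the study uses for similarly expressed transcripts, the reference probes had 219 partner probes (Foxp1), 4 (Foxp2) and 911 (Foxp4). The second probes of Foxp1 and Foxp4 had 143 and 840, the dim probes A_55_P2105452 and A_51_P233753 had 0, and A_51_P492893 had 123. Of the paralogue pairs, 0 reached that limit, although Foxp2 and Foxp4 passed it with the array median as the scaling (0.88). Among 16723 named genes ranked by the r of their best probe with the Foxp1 reference probe, Foxp4 stood at rank 1684 and Foxp2 at rank 2615.

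Of the other genes whose symbol begins with Fox, 43 were on the array and 37 were detected widely enough to be tested. For coronal position 11 of the 37 passed the threshold and for position in any series 15, against 19.8% and 33.4% of all probes. Their median r was -0.04 with Foxp1, 0.06 with Foxp2 and -0.01 with Foxp4. Among those with the smallest adjusted p over all series were Foxo1, a mediator of insulin signalling (0.00294), Foxo6, its relative in the brain (0.0034), and Foxk1 (0.00355). Foxo6 ran from 1.14 in coronal fraction 2 to 4.67 in fraction 5 and had r of 0.90 with Foxp1. Foxp3, the remaining Foxp gene, which is known from regulatory T cells, was well above background on 10 of 22 arrays, with a median of -4.49, and was past the threshold in no term (adjusted p 0.0675 for any series). It was highest in sagittal fraction 6, at -1.38, the lowest fraction of the sagittal series for Foxp4.

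Foxp proteins repress through the NuRD and CtBP complexes, and the 15 genes of these complexes had a median range over the 22 fractions of 1.24. For coronal position 3 of 15 passed the threshold, or 20%, against 19.8% of all probes, and for any series 6, or 40%, against 33.4%. They included Mta3 and Mta1, subunits of NuRD, whose sagittal linear terms were -0.95 and -1.41 (adjusted p 0.00563 and 0.00477), and whose lowest sagittal value lay in fraction 6, as that of Foxp4 did. Both calls were lost without that fraction, when 0 of all 39621 probes passed in limma for the sagittal linear term (2203 at an unadjusted p under 0.05). Chd3, a chromatin remodeller of NuRD, ran from 4.74 in coronal fraction 2 to 6.85 in fraction 6 (adjusted p 0.00644) and had r of 0.78 with Foxp1 and 0.85 with Foxp4, the highest of the list, whose r with Foxp1 went down to -0.72 (Hdac1) and whose median r was -0.20, 0.19 and 0.11 with Foxp1, Foxp2 and Foxp4. Gatad2b, another NuRD subunit, had an adjusted p of 0.0158 over all series.

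Among 8 transcription factors listed as partners of Foxp proteins in cortical neurons, 4 were past the threshold for coronal position and 6 for any series, against 19.8% and 33.4% of all probes. All 4 coronal ones had a positive linear term, as had 4901 of the 7847 probes called among all probes (2376 of 2888 with the array median). Tbr1, a factor of deep cortical layers, ran from -3.02 in coronal fraction 1 to 4.58 in fraction 9 (adjusted p 1.34e-04) and had r of 0.86 with Foxp1, 0.54 with Foxp2 and 0.52 with Foxp4. Satb1 and Nr2f1, a chromatin organiser and a nuclear receptor of the cortex, had r of 0.75 and 0.72 with Foxp1, and of 0.09 and 0.51 with Foxp2. Of 9 genes listed as targets reported for Foxp2, 4 were past the threshold for coronal position and 6 for any series, against 19.8% and 33.4% of all probes. Mef2c, a regulator of synapse number known to be repressed by Foxp2, ran from -2.91 in coronal fraction 2 to 1.61 in fraction 9 (adjusted p 2.46e-04) and had r of 0.86 with Foxp1 and 0.33 with Foxp2. Met, a receptor tyrosine kinase, and Vldlr, a reelin receptor, had r of 0.75 and 0.87 with Foxp1. Over this target list, r with Foxp2 ran from -0.65 to 0.68. Ntn1, an axon guidance cue, was past the threshold for horizontal position (adjusted p 0.0234) and not for coronal position (0.118). Cntnap2, an adhesion molecule of axons known as a target of Foxp2, was past the threshold for coronal position (adjusted p 0.0325) and had r of 0.94 with Foxp4, 0.61 with Foxp2 and 0.49 with Foxp1, while Dcc, a netrin receptor of the same list, had r of -0.60, -0.65 and -0.13. Both are named here after their values were seen. Median r with Foxp1, Foxp2 and Foxp4 was 0.51, 0.27 and 0.35 for the partner list and 0.42, 0.29 and 0.42 for the targets.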

How the data were processed

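Total RNA of 22 brain fractions was hybridised to Agilent SurePrint G3 Mouse arrays in 1 colour (Cy3). Per the file headers, the authors extracted the spots with Feature Extraction 10.10.1.1 on an mm9 design, which gives each spot a linear, background-subtracted intensity, and no spot was saturated. A table of log2 values that the authors deposited as well differed by at most 0.008 from the values used here for the Foxp probes. Each array's 75th percentile was subtracted from the log2 intensities of 55600 probes, without outlier and control spots. Gene names came from RefSeq (26553 of 28087 RefSeq probes matched). The reference probe of a gene was that with the highest median level.

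Change along the series was tested with limma 3.58.1 in R 4.3.3, in 1 model over 22 arrays that gave every series its own quadratic curve in slab position (13 residual degrees of freedom), on 39621 probes. Differences of probes were added as rows. P-values were adjusted over all rows by the Benjamini-Hochberg method, with a threshold of 0.05. The fit was tested on simulated data. Correlations (Python 3.11.15, numpy 2.4.6, pandas 2.3.3) carry no p, since fractions of 1 series share a mouse. The members and lists were chosen with earlier results of these data known. Named genes followed a rule: all Foxp probes, the 5 genes of highest r with each reference probe, and up to 4 genes per list by adjusted p over all series, of which some are not reported here. Foxred1 and Foxred2, which are not forkhead genes, were left out of the Fox list, which kept the opposite-strand transcripts Foxd2os and Foxl2os. A list gene was read from its brightest probe. Positions are slab numbers, since the labels give slabs of 500 µm and the methods a thicker fraction. Alternatives were other scalings, background correction, filters, curves, covariates, slide as a block, each series alone and leaving out each array. The normexp alternative used median spot signals in place of the mean signals that had been planned. Arrays have no read depth, and their number limits the precision.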

Additional observations from a re-analysis of the deposited data

Results flagged for a closer look

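In 5 of the 24 groups made by 8 probes and 3 series, the highest or lowest fraction stood apart from the rest, by the gap to its neighbour as a share of the range of the group. For independent values from 1 normal population, about 1 group in 20 would stand apart so far. Fractions along an axis hold different tissue and are not such values, so this rate does not apply directly. Probes of 1 gene are not independent either. Sagittal fractions 1 and 6, at the ends of the series, each pooled more than 1 slab. All 3 Foxp4 probes were far below the other sagittal fractions in fraction 6: A_55_P2149983 with a gap of 0.763 of the range, A_55_P2015605 with 0.767 and A_51_P492893, there not well above background, with 0.845. The Foxp1 probe A_55_P2105452 stood far above the rest in horizontal fraction 3, with a gap of 0.695 of the range, while the other Foxp1 probes in that fraction lay within the range of the other horizontal fractions. The Foxp2 probe A_51_P233753 was lowest in sagittal fraction 1, with a gap of 0.704 of the range.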

How the results depend on the processing

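No paired analysis was possible because fractions with the same number in different series come from different mice and axes. Of the adjusted p-values of single probes and differences, 2769 stayed on their side of the threshold, 78 moved above it and 49 below it. Position in a series, tested by an F test, has no single direction. The sagittal terms, which have one, changed sign in 22 fits. Past the threshold as analysed were 2 of these, both with normexp: the linear term of A_51_P492893 (adjusted p 0.701) and of A_55_P2149983 minus A_51_P492893 (0.108). The cause of the changes listed here was not tested.

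The other changes of sign were in terms that were not past the threshold in either fit. For the linear term they were A_66_P130601 with no scaling (0.833), and Foxp1 minus Foxp4 with a107 as a covariate (0.738) and with slopes in range (0.541). For the quadratic term they were A_51_P492893 (0.554) and A_55_P2149983 minus A_51_P492893 (0.121) with normexp, A_52_P276792 with the array median (0.959) and no scaling (0.616), A_55_P2088825 with no scaling (0.802), and Foxp2 minus Foxp4 with normexp (0.684) and slopes in range (0.973). Without 1 array at a time, the adjusted p of the terms that changed sign ranged as follows. The linear term ranged from 0.0854 to 0.933 for A_55_P2015605, from 0.0718 to 0.827 for A_55_P2105452 and from 0.121 to 0.956 for A_55_P2149983, each with the other sign without sagittal fraction 6. It ranged from 0.234 to 0.937 for A_66_P130601 (the other sign without sagittal fraction 1), from 0.649 to 0.994 for Foxp1 minus Foxp4 (sagittal fraction 1 or 4) and from 0.591 to 0.944 for A_55_P2149983 minus A_55_P2015605 (sagittal fraction 6). The quadratic term ranged from 0.752 to 0.99996 for A_52_P276792 (sagittal fraction 4), from 0.766 to 0.99996 for Foxp2 minus Foxp4 (sagittal fraction 1) and from 0.133 to 0.99996 for A_55_P2149983 minus A_51_P492893 (sagittal fraction 6).

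Of the 8 Foxp probes, the number past the threshold for coronal position (6) was 0 with a straight line in each series, 2 with a107 as a covariate, 2 on the 15 arrays with a slope in range and 2 with each series fitted alone, and 5 to 6 without 1 array at a time. For horizontal position (0) it was 1 with the slide as a block and 0 to 1 without 1 array, the 1 (A_66_P130601, adjusted p 0.0169) being without coronal fraction 2 (5365 of all probes with the slide block and 6522 without that fraction, against 2609). For the sagittal linear term (1) it was 0 with the array median, quantile normalization, normexp, the floor on dim values, probes well above background on all arrays, a straight line or each series alone, 2 with no scaling, slopes in range or the slide block, and 0 to 2 without 1 array (0 without sagittal fraction 6, 2 without coronal fraction 1). For the sagittal quadratic term (0) it was 0 without any 1 array. For any series (6) it was 0 with a straight line or slopes in range, and 3 to 7 without 1 array (3 without sagittal fraction 6).

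Of the 3 paralogue differences, with 0 past the threshold in every term, 1 was past it in the coronal series with normexp and 1 with slopes in range, 2 in the sagittal linear term with normexp, and over all series 3 with normexp and 2 each with probes well above background on all arrays, the slide block, or a trended and robust variance. Without 1 array the numbers were 0 to 1 in the coronal series, 0 to 0 in the horizontal series and both sagittal terms, and 0 to 2 over all series, the 2 being without coronal fraction 10 and 1 without coronal fraction 2, 3, 8 or 9.

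Of the 5 same-gene differences, 2 were past it in the coronal series (0) with normexp. In the sagittal linear term (1) the number was 0 with the array median, quantile normalization, the floor, probes well above background on all arrays, a straight line, fraction numbers or each series alone, and 2 with slopes in range. Over all series (1) it was 0 with the array median, quantile normalization, the floor, a straight line, fraction numbers or slopes in range, 2 with normexp and 3 with the trended and robust variance. Without 1 array the numbers were 0 to 1 in the coronal series, 0 to 0 in the horizontal series and the sagittal quadratic term, 0 to 2 in the sagittal linear term (0 without sagittal fraction 2 or 6, 2 without horizontal fraction 3), and 0 to 2 over all series (0 without coronal fraction 6 or sagittal fraction 1, 2, 4 or 6, 2 without horizontal fraction 3 or 4).

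Each series is 1 mouse, so nothing here measures the spread between animals. The dim probes lie where spots of 1 array scatter most, and single fractions decided several of their calls. Over all 39621 probes the coronal number was 7847, against 1598 with the slide as a block, 2826 with a straight line, 2888 with the array median, 4132 with slopes in range, 4208 with a107 as a covariate and 634 with the coronal series alone. Without 1 array it lay between 4853 (without coronal fraction 6) and 10680 (without coronal fraction 1), and was 5058 and 5206 without coronal fractions 2 and 7. The sagittal linear number, 4036, lay between 0 (without sagittal fraction 6) and 4956. The sagittal quadratic number, 12, lay between 0 and 393 (without coronal fraction 1) and was 911 with normexp. The number for any series, 13218, lay between 3279 (without sagittal fraction 6) and 17195, and was 2510 with the array median and 93 with slopes in range. The share with a positive linear term also moved with the scaling. For the sagittal linear term it was 3074 of 4036, against 1 of 3 with the array median, 1116 of 1874 with quantile normalization, 60 of 2765 with no scaling and 5432 of 6240 with normexp. For coronal position it was 4901 of 7847, against 2376 of 2888 with the array median and 2652 of 5105 with no scaling, and for horizontal position 1569 of 2609, against 486 of 525 with the array median, 2618 of 3225 with quantile normalization and 1124 of 2305 with no scaling.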
